A study of Mus musculus with 176 samples.

Results

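The Ikaros family comprises 5 genes for zinc finger transcription factors, Ikzf1 (Ikaros), Ikzf2 (Helios), Ikzf3 (Aiolos), Ikzf4 (Eos) and Ikzf5 (Pegasus). They were selected by name from a count table with 53546 different gene names, in which each was listed once. Single CD4 T cells came from the inguinal and para-aortic lymph nodes of immunized female C57BL/6J mice. The study's text names 1 mouse for the tetramer-binding cells, and its methods describe both groups as sorted from portions of a single stained sample. Mice were bought at 7 weeks of age and immunized in the thigh muscle with 100 µg of P6, a peptide of apolipoprotein B (ApoB). The first dose was in complete Freund's adjuvant, the boost at week 2 was in incomplete Freund's adjuvant, and the nodes were taken at week 4, counted from the first dose. Both groups were depleted of other lineages with antibodies to B cell, CD8 T cell, myeloid and NK cell proteins, and were held in dasatinib, a kinase inhibitor, before tetramer staining. All cells were sorted as TCRβ+ CD4+ CD44hi CD62L-, that is antigen-experienced, and sequenced one per well by Smart-Seq2, which reads whole transcripts. Of the cells sorted, 32 bound the P6:I-Ab tetramer (P6+) and the others did not (P6-). Limits on reads, genes and mitochondrial reads left 161 cells, among them all 32 P6+ cells, and the shares of P6- cells below are of the remainder of these 161. Both groups carried the same immunization, and no cells of an unimmunized mouse were analysed here. Because no label tells animals apart, each group counted as 1 sample, and no difference was tested. Values are given with 95% intervals that cover counting error only. The study reported expanded clones among the P6+ cells. The intervals treat cells as independent, so they do not cover likeness between cells of a clone.

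Ikaros proteins bind DNA through zinc fingers near the amino terminus and pair with each other through a last pair of fingers at the carboxyl terminus. They recruit the NuRD and Sin3 corepressor complexes and, in other settings, SWI/SNF remodelers. Ikaros and Aiolos are best known from lymphocyte development and as the proteins that lenalidomide-type drugs send to the cereblon ubiquitin ligase. Helios and Eos are best known from regulatory T cells (Tregs), in which Eos takes part in gene silencing by Foxp3, the lineage-defining factor of Tregs. Pegasus is the most distant relative.

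A part of the coding sequence that relates the members was read for Ikzf1, Ikzf2 and Ikzf5 from the GENCODE annotation of GRCm38, to show why the members are relatives and how far their reads can be told apart. The 63 bases shown encode a zinc finger of the carboxyl-terminal pair, the most alike of the fingers found by a search for the classical spacing of cysteines and histidines. The stretch lay within a single exon in each of these genes, and is written 5′ to 3′ on the coding strand. Capitals mark the 38 bases that were identical in all 3 sequences.
Ikzf1, chr11:11769411-11769473, plus strand: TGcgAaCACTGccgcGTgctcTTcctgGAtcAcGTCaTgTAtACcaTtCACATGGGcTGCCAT
Ikzf2, chr1:69538870-69538932, minus strand: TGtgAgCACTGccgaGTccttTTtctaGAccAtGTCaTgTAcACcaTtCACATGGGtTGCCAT
Ikzf5, chr7:131391739-131391801, minus strand: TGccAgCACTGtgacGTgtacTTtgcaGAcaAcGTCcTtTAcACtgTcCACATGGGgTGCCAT

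Over this window Ikzf1 and Ikzf2 had 52 identical bases (82.5%), and each of them had 43 identical with Ikzf5 (68.3%). Over the whole coding sequences the longest run shared by any pair of the 5 members was 26 bases, between Ikzf1 and Ikzf3, against reads of 150 bases. The genes stand apart in the genome, with Ikzf1 at chr11:11685003-11772926, Ikzf2 at chr1:69531214-69687245, Ikzf3 at chr11:98464902-98546031, Ikzf4 at chr10:128630843-128645991 and Ikzf5 at chr7:131388652-131410521.

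Cells differed in depth and quality between the groups. The median was 1731608 reads and 4396 genes in P6+ cells and 1500457 reads and 3432 genes in P6- cells, with 1.3% and 3.6% mitochondrial reads. Markers of CD4 T cells were found in nearly all cells: all 32 P6+ cells and all but 8 P6- cells had at least 10 reads of 2 or more of 9 CD4 T cell markers, and myeloid markers reached 10 reads in 0 cells. At least 1 marker of other lists reached 10 reads in 2 P6- cells for CD8 T cells, 3 P6- cells for NK cells and ILCs, and 1 P6+ and 1 P6- cell for dendritic cells. The plasma cell list, whose Xbp1 and Prdm1 T cells also express, did so in 17 P6+ and 59 P6- cells. All P6+ cells shared 1 of 8 name prefixes, which 11 passing P6- cells also carried, so tetramer binding and prefix can be told apart only through those 11 cells.

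Most cells had either few or many reads of a member. Of the 161 cells, 58 had no read of Ikzf2, 58 had 1 to 9, 3 had 10 to 99 and 42 had 100 or more. For Ikzf4, 97 cells had none, 45 had 1 to 5 reads, and the next cell had 155. A cell was therefore counted as having a member from 10 reads, and cells below that line held 0.281% of the Ikzf1 reads, 0.146% of Ikzf2, 0.218% of Ikzf3 and 0.152% of Ikzf4. Ikzf5 was sparse, with 79 reads in its highest cell and 21.1% of its reads in cells below 10.

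**Figure D1:**
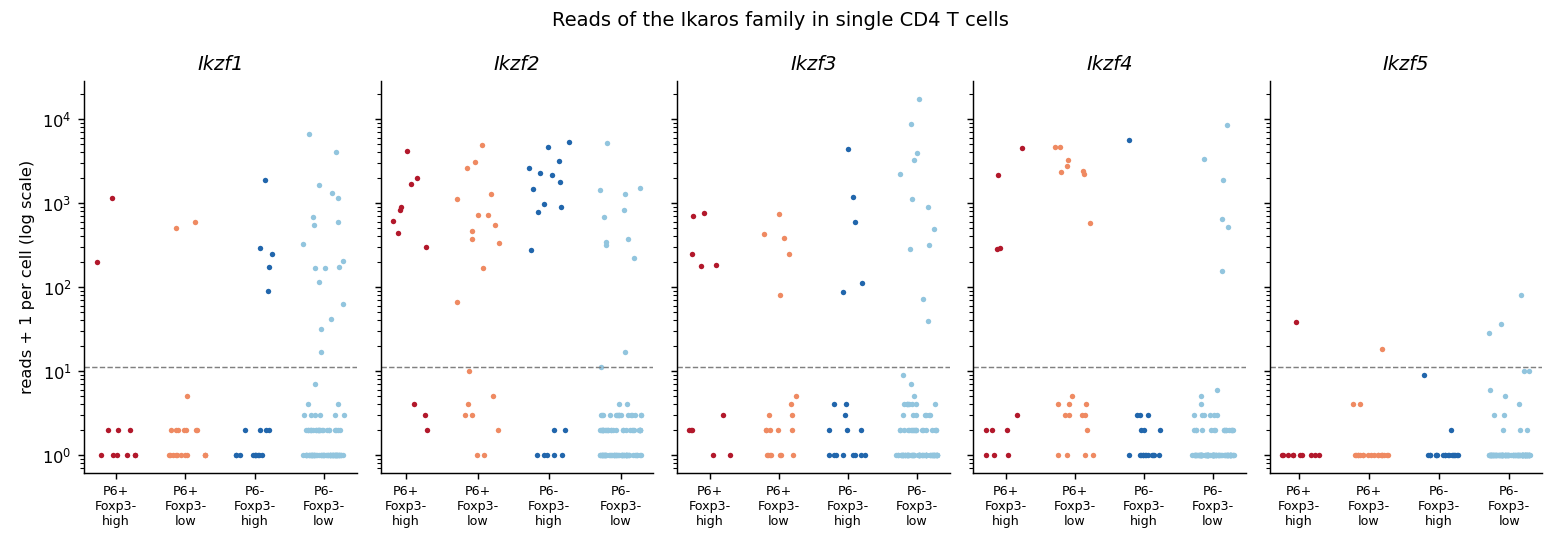
Reads of each member per cell, as reads + 1 on a log axis, in the 4 groups by tetramer and Foxp3 (1 point per cell, dashed line at 10 reads). Ikzf4 points leave a gap between 5 and 155 reads, Ikzf2 has 3 cells between 10 and 99 reads, and Ikzf5 stays at or below 79 reads.

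Ikzf2, Helios, was the member whose share of cells differed most between tetramer-binding and other cells. Among the 4 members tested its pooled log2 ratio (1.27) was about the size of that of Ikzf1 (-1.28). Those of Ikzf3 (-1.73) and Ikzf4 (2.33) were larger in size. In P6+ cells the lowest Ikzf2 value was 0, the median 409 and the highest 4861 reads, and in P6- cells the lowest was 0, the median 1 and the highest 5293. The ranges overlapped, but the P6+ median lay above and the P6- median below the line of 10 reads. Ikzf2 reached 10 reads in 21 of 32 P6+ cells (65.6%, exact Clopper-Pearson interval 46.8 to 81.4%) and in 24 P6- cells (18.6%, 12.3 to 26.4%). The pooled level was 459 cpm (cpm, reads of the gene per 1000000 reads of the group, exact Poisson interval 453.5 to 464.4) in P6+ and 189 cpm (187.5 to 191.3) in P6- cells, 2.42-fold higher. Cells that had Ikzf2 had it at a median of 475 cpm in the P6+ and 948 cpm in the P6- group, so the difference in the pool lay in how many cells had it.

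Ikzf4, Eos, was rarer and more restricted to P6+ cells. It reached 10 reads in 12 of 32 P6+ cells (37.5%, 21.1 to 56.3%) and in 7 P6- cells (5.43%, 2.21 to 10.9%). The 12 P6+ cells ranged from 281 to 4712 reads with a median of 2381. The 7 P6- cells had 155, 514, 650, 1858, 3329, 5571 and 8392 reads, so the cells that had Ikzf4 overlapped in amount between the groups. The pooled level was 509 cpm in P6+ and 100.6 cpm in P6- cells, 5.05-fold higher, and the highest P6- cell held 40.9% of the P6- reads. On the log2 scale with a pseudocount of 1 cpm the ratio was 2.33, and 2.89 when the highest cell of each group was left out.

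Ikzf3, Aiolos, gave opposite directions for cells and for level. More P6+ cells had it (10 of 32, 31.2%, 16.1 to 50.01%) than P6- cells (17 cells, 13.2%, 7.87 to 20.3%), but the pooled level was 66.3 cpm in P6+ and 221 cpm in P6- cells. The P6+ cells with Ikzf3 ranged from 80 to 750 reads, and the P6- cells from 38 to 17433. The highest of these, a P6- cell of the same prefix as the P6+ cells, held 38.6% of the P6- reads. Without the highest cell of each group the log2 ratio was -1.30, against -1.73 with all cells. The higher P6+ share rested on cells with the receptor segment Trbv13-2, a split described below. Ikzf3 was found in 50% of the 16 P6+ cells with it and 12.5% of the 16 without, the latter close to the P6- share.

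Ikzf1, Ikaros, was found in fewer P6+ cells, with overlapping intervals. It reached 10 reads in 4 of 32 P6+ cells (12.5%, 3.51 to 28.99%) and 23 P6- cells (17.8%, 11.7 to 25.5%). The 4 P6+ cells had 198, 499, 589 and 1141 reads, and the P6- cells with Ikzf1 ranged from 16 to 6718. The pooled level was 41.1 cpm in P6+ and 101.5 cpm in P6- cells, 2.47-fold lower. Ikzf5, Pegasus, reached 10 reads in 2 P6+ and 3 P6- cells, and its pooled level was 1.01 and 0.917 cpm.

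Per exon length (reads per kilobase of exon, divided by depth as for cpm), the order in P6+ cells was Ikzf4 (84.8), Ikzf2 (39.5), Ikzf3 (7.57), Ikzf1 (7.12) and Ikzf5 (0.177). In P6- cells it was Ikzf3 (25.3), Ikzf1 (17.6), Ikzf4 (16.8), Ikzf2 (16.3) and Ikzf5 (0.160). Single cells could reorder Ikzf3 and Ikzf1 in P6+ cells and all of the first 4 in P6- cells, since the highest cell held 46.7% of the P6+ Ikzf1 reads and 32.5%, 38.6% and 40.9% of the P6- Ikzf1, Ikzf3 and Ikzf4 reads. Without the P6- cells of the P6+ prefix the order was Ikzf4 (18.2), Ikzf1 (17.5), Ikzf3 (16.8) and Ikzf2 (15.9).

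Large differences between these pools were common among all genes. Of 8728 genes with at least 10 cpm in the higher group, 24.3% were at least 2-fold higher and 29.9% at least 2-fold lower in P6+ than in P6- cells, and of the 4 members that reached this level 2 were higher and 2 lower. In the share of cells Ikzf2 and Ikzf4 stood further out. Of 5176 genes found in at least 10% of the cells of a group, 14.4% were found in at least 20 percentage points more P6+ than P6- cells, with a median over all of 8.70 points. Ikzf2 (47.02 points) and Ikzf4 (32.1 points) passed that mark, Ikzf3 (18.1) and Ikzf1 (-5.33) did not, and Ikzf5 was found in too few cells. Larger gains than that of Ikzf2 were seen for 15 genes, and than that of Ikzf4 for 170.

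The P6- cells were also read prefix by prefix, with 11 to 24 cells each. The Ikzf2 share ran from 0 to 33.3% over the 8 prefixes and the Ikzf4 share from 0 to 10%, all below the P6+ shares of 65.6% and 37.5%. Ikzf3 ran from 5 to 25%, below the P6+ share of 31.2%, and Ikzf1 from 6.25 to 36.4%, around the P6+ share of 12.5%. Among the 11 P6- cells of the P6+ prefix, Ikzf2 was found in 2 (18.2%, 2.28 to 51.8%) and Ikzf4 in 0. A count of 0 allows 3 counts of 11, or 27.3%, and the exact interval reaches 28.5%.

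**Figure D2:**
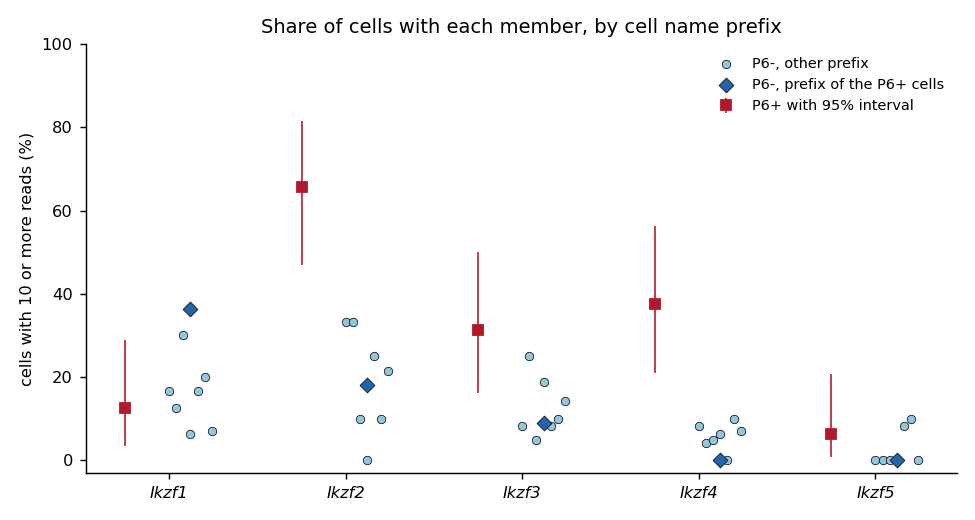
Share of cells with at least 10 reads of each member in P6+ cells (square, with the 95% exact interval) and in P6- cells of each name prefix (points, with the P6+ prefix as a diamond). For Ikzf2, Ikzf3 and Ikzf4 the P6+ share lies above that of every P6- prefix, and for Ikzf1 it lies among them.

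Foxp3 reads left a gap around the line of 10 reads. Below the line the highest P6+ cell had 4 reads and the highest P6- cell 2, and above it the lowest had 22 and 37. This gave 11 Foxp3-high and 21 Foxp3-low P6+ cells, and 19 Foxp3-high and 110 Foxp3-low P6- cells. Of the Foxp3-low cells, 12 P6+ and 85 P6- cells had no Foxp3 read. The other 9 P6+ and 25 P6- cells had at least 1, so Foxp3-low does not mean without Foxp3. Foxp3 itself, having made the split, is not a result.

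Helios followed Foxp3 in P6- cells. Ikzf2 was found in 12 of 19 Foxp3-high P6- cells (63.2%, 38.4 to 83.7%) and in 12 of 110 Foxp3-low P6- cells (10.9%, 5.77 to 18.3%), with pooled levels of 890 and 70.7 cpm. Reads ranged from 0 to 5293 with a median of 907 in the Foxp3-high, and from 0 to 5230 with a median of 1 in the Foxp3-low P6- cells. Of 5608 genes, 6.74% were found in at least 20 points more Foxp3-high than Foxp3-low P6- cells. Ikzf2 gained 52.3 points, and the single gene with a larger gain was Foxp3, on which the cells were split. Ikzf3 gained 15.4 and Ikzf1 9.95 points. The Ikzf2 gain was smaller among cells with CD4 T cell markers and none of the B cell markers described below, where Ikzf2 was found in 1 of 7 Foxp3-high (14.3%, 0.361 to 57.9%) and 2 of 76 Foxp3-low P6- cells (2.63%). With Foxp3-high set at 1 read, Ikzf2 was found in 34.1% of Foxp3-high and 10.6% of Foxp3-low P6- cells.

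In P6+ cells Ikzf2 was common in both Foxp3 classes. It was found in 8 of 11 Foxp3-high (72.7%, 39.03 to 93.98%) and 13 of 21 Foxp3-low cells (61.9%, 38.4 to 81.9%), at 598 and 398 cpm. Medians were 604 and 330 reads. Among the 12 P6+ cells with no Foxp3 read Ikzf2 was found in 7 (58.3%, 27.7 to 84.8%). Among Foxp3-low cells alone, the P6+ share exceeded the P6- share by 51 points, where 14.5% of 4692 genes gained at least 20 points and 9 gained more than Ikzf2. Among Foxp3-low P6+ cells with CD4 T cell and no B cell markers Ikzf2 was found in 4 of 12 (33.3%, 9.93 to 65.1%). Among Foxp3-high cells alone the gain was 9.57 points, against a median of 10.1 over all genes. Among cells with Helios, 8 of 21 P6+ cells with Ikzf2 were Foxp3-high (38.1%, 18.1 to 61.6%), as were 12 of 24 P6- cells with Ikzf2 (50%, 29.1 to 70.9%).

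Eos was found about as often in Foxp3-high as in Foxp3-low cells of each group, within wide intervals. Ikzf4 was found in 4 of 11 Foxp3-high (36.4%, 10.9 to 69.2%) and 8 of 21 Foxp3-low P6+ cells (38.1%, 18.1 to 61.6%), and in 1 of 19 Foxp3-high (5.26%, 0.133 to 26.03%) and 6 of 110 Foxp3-low P6- cells (5.45%, 2.03 to 11.5%). The Foxp3-high P6+ cells with Ikzf4 had 281, 294, 2181 and 4515 reads, and the 1 Foxp3-high P6- cell had 5571, which was 99.8% of the Ikzf4 reads of its group. Ikzf4 gained 32.6 points between Foxp3-low P6- and P6+ cells and 31.1 between Foxp3-high P6- and P6+ cells. In the latter comparison 25.2% of 6412 genes gained at least 20 points, and 1 of the 4 members tested did, Ikzf4, a share near that background.

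Aiolos and Ikaros had somewhat higher shares in Foxp3-high cells of both groups, with wide and overlapping intervals, as did most genes tested in each group. Ikzf3 was found in 45.5% of Foxp3-high and 23.8% of Foxp3-low P6+ cells, and in 26.3% and 10.9% of P6- cells. Ikzf1 was found in 18.2% and 9.52% of P6+ and in 26.3% and 16.4% of P6- cells. Between Foxp3-high and Foxp3-low P6+ cells 22.4% of 5671 genes gained at least 20 points, and Ikzf3, with 21.7 points, was 1 of 4 members tested, a share near that background. The Ikzf1 gain there, 8.66 points, equalled the median over all genes, and in P6- cells the median was 5.93 points.

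**Figure D3:**
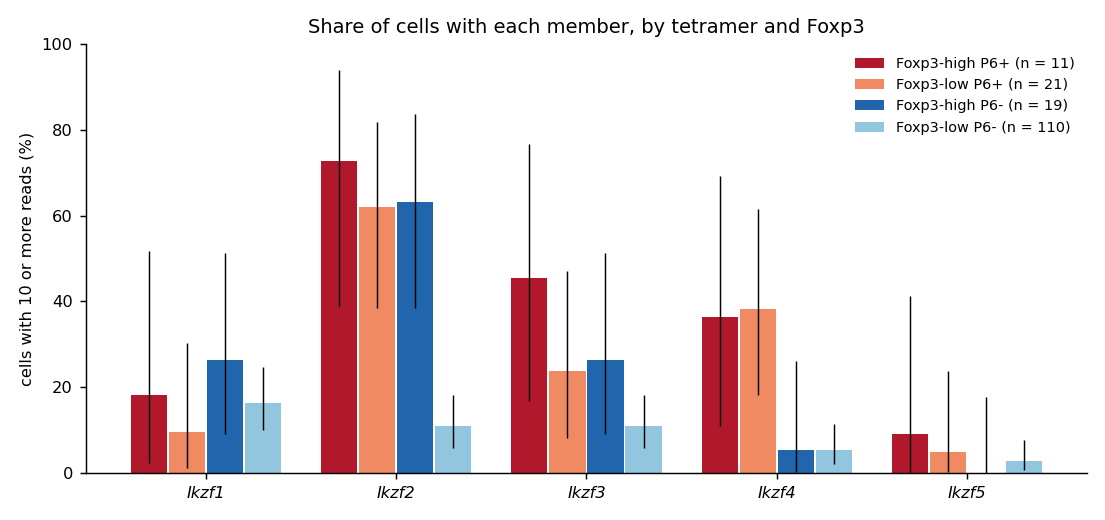
Share of cells with at least 10 reads of each member in the 4 groups, with bars from 0 and 95% exact Clopper-Pearson intervals that cover counting error only. The 3 Ikzf2 bars of P6+ and Foxp3-high cells stand between 61.9 and 72.7% and that of Foxp3-low P6- cells at 10.9%, whereas for Ikzf4 both P6+ bars stand above both P6- bars.

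Members were often found in the same P6+ cell. At least 2 of the 5 reached 10 reads in 17 of 32 P6+ cells (53.1%, 34.7 to 70.9%) and in 16 P6- cells (12.4%, 7.26 to 19.4%). Members found in more cells also meet more often. The count expected from the single shares was not computed, so this difference is not a separate result about joint expression. None was found in 5 P6+ cells (15.6%, 5.28 to 32.8%) and in 73 P6- cells (56.6%, 47.6 to 65.3%), and every Foxp3-high P6+ cell had at least 1. Ikzf2 with Ikzf4 was the most frequent pair in P6+ cells. It was found in 10 P6+ cells (31.2%) and 4 P6- cells (3.10%), and Ikzf2 was found in 10 of the 12 P6+ cells with Ikzf4 (83.3%, 51.6 to 97.9%) and 11 of the 20 without (55%, 31.5 to 76.9%). The amounts did not go together within P6+ cells, with a Spearman rho of -0.07 over the 32 cells and 0.12 over the P6- cells, which are descriptions across cells of 1 sample each. P6+ cell 8, for example, had 716 Ikzf2 and 4712 Ikzf4 reads, P6+ cell 27 had 4861 and 3228, and P6+ cell 7 had 4179 and 0.

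**Figure D4:**
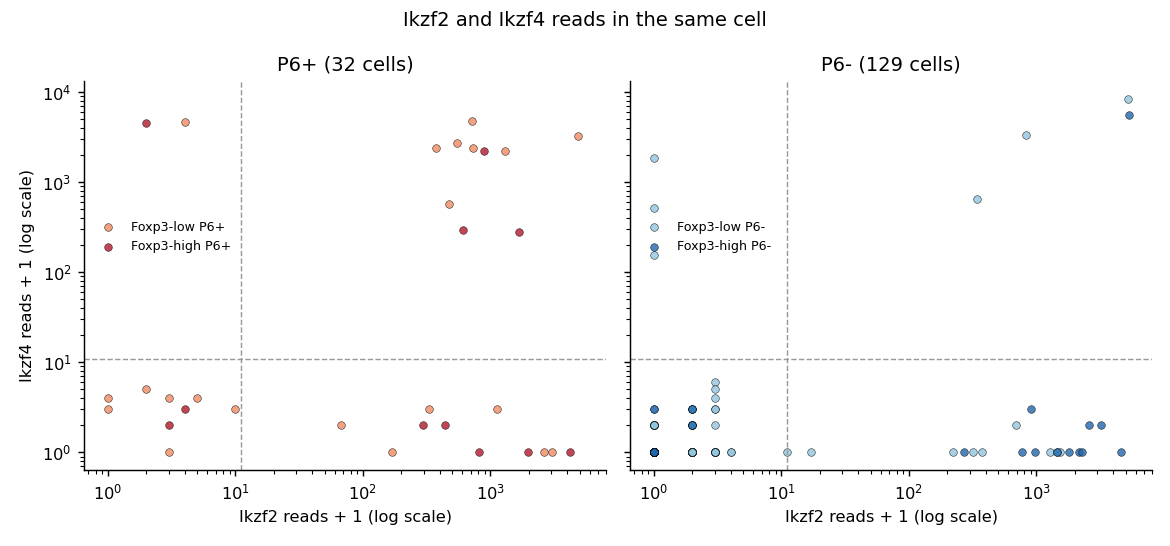
Ikzf2 against Ikzf4 reads of the same cell, both as reads + 1 on log axes, for P6+ (left) and P6- cells (right) with the Foxp3 class as colour (dashed lines at 10 reads). The upper right corner holds 10 P6+ and 4 P6- cells, and Foxp3-high cells lie on both sides of the Ikzf4 line.

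P6+ cells were also split by the receptor segment Trbv13-2, which reached 10 reads in 16 of them. The study names this segment in the β chain of its major expanded clone, and cells were not split by clone here. Ikzf2 was found in 13 cells with and 8 without Trbv13-2 (81.2%, 54.4 to 95.95%, and 50%, 24.7 to 75.4%). Ikzf3 was found in 8 and 2, Ikzf4 in 7 and 5, Ikzf1 in 1 and 3, and Ikzf5 in 1 and 1.

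Cells with Helios held more Treg genes. Of 15 genes of a Treg list without Foxp3 and the Ikaros family, cells with Ikzf2 had a median of 9 (range 4 to 11) in the P6+ group, and cells without it 5 (1 to 8). In P6- cells the medians were 7.5 and 3. Among Foxp3-low P6+ cells they were 8 and 5. At least 20 points more of the P6+ cells with than without Ikzf2 had 7 of the 15 genes, against 13.1% of 5522 genes, and of the P6- cells 9 of 15, against 6.12% of 4754. Capg, an actin capping protein, was found in 17 of 21 P6+ cells with and 3 of 11 without Ikzf2. Ctla4, a co-inhibitory receptor, was found in 20 of 21 and 5 of 11, and Lrrc32, which presents TGF-β on Tregs, in 10 of 21 and 0 of 11. Tnfrsf4 (OX40) was found in all 32 P6+ cells and did not separate them. Several of these genes were named by the study from these cells, so the count is not independent evidence of a direction. Median depth was 1568921 reads in P6+ cells with and 2203436 in those without Ikzf2, with 4402 and 4390 genes.

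For Ikzf4 the Treg list differed less over all P6+ cells, with medians of 8 genes with and 7 without Ikzf4. Among Foxp3-low P6+ cells the medians were 8 and 5, the same as for Ikzf2. Among Foxp3-high P6+ cells they were 9.5 and 9, against 10 and 7 for Ikzf2. Over all P6+ cells 2 of 15 genes gained at least 20 points with Ikzf4, against 10.2% of 6667 genes, a share near that background. The 2 were Tnfrsf9 (4-1BB), in 10 of 12 cells with and 7 of 20 without Ikzf4, and Capg, in 10 of 12 and 10 of 20. Tgfb1, a cytokine of Tregs, was found in fewer of the P6+ cells with Ikzf4, 4 of 12 against 14 of 20, as was Itgae, in 3 of 12 against 8 of 20. In the 7 P6- cells with Ikzf4, 8 of 15 genes gained at least 20 points over those without, against 15.3% of 5879. Tgfb1 was among these, in 57.1% of cells with and 27.05% without Ikzf4, and Itgae was at 14.3% and 7.38%, so both went the other way than in P6+ cells.

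**Figure D5:**
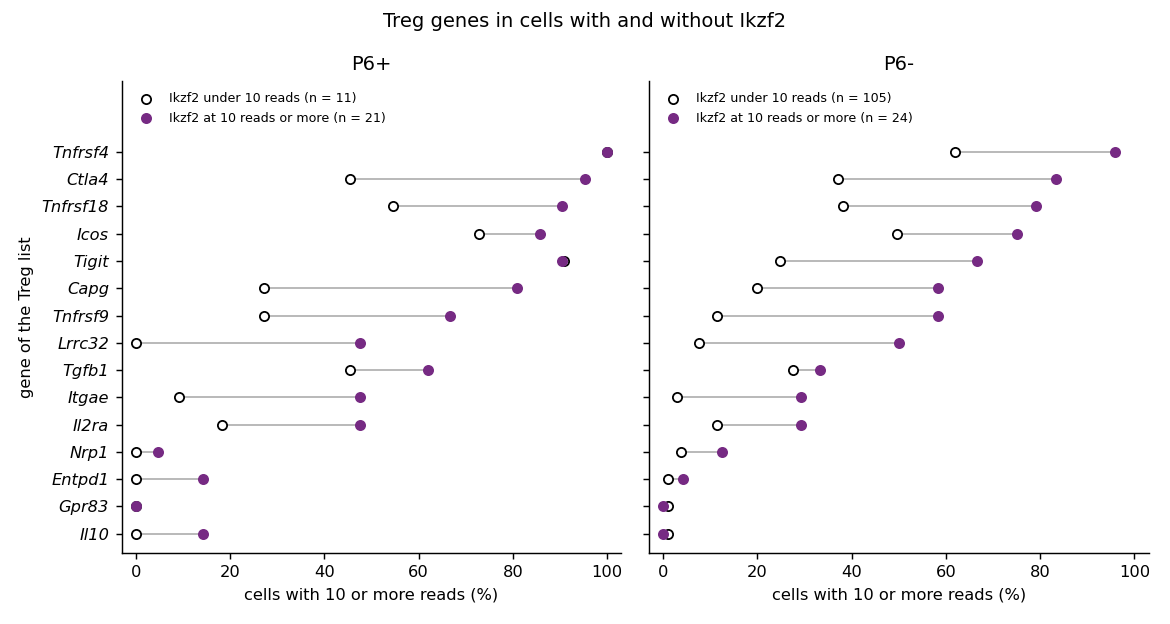
Share of P6+ and P6- cells with at least 10 reads of each of 15 Treg genes, for cells with (filled) and without (open) 10 reads of Ikzf2. Filled points lie to the right for 12 genes in P6+ and 13 in P6- cells, as they would for 59.7% of 5522 and 69.7% of 4754 genes tested.

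Some transcripts listed as B cell markers were found beside Helios. Of a list of 7 B cell markers, at least 1 reached 10 reads in 18 of 32 P6+ and 38 P6- cells, with a summed level of 0.741 to 7726 cpm (median 733) in P6+ and 0 to 10660 cpm (median 1.70) in P6- cells. Ighm (14 P6+ and 30 P6- cells), Cd74 (14 and 17) and Cd79b (2 and 0) made up all of these, whereas the defining markers Cd79a and Ms4a1 and the class II genes H2-Aa and H2-Ab1 did not exceed 3 reads in any cell. The depletion before the sort was directed at B cells among others. Ikzf2 was found in 16 of the 18 P6+ cells with such a marker and in 5 of the 14 without (35.7%, 12.8 to 64.9%), and in 20 of 38 and 4 of 91 P6- cells (4.40%, 1.21 to 10.9%). Ikzf4 was found in 8 of 18 and 4 of 14 P6+ cells, and in 4 of 38 and 3 of 91 P6- cells. The P6+ share of both genes was the higher one with and without these transcripts.

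The genes whose level over the 161 cells was most like that of a member were taken from 1776 genes with 10 reads in at least 20% of cells. For Ikzf2 these were Tnfrsf9 (Spearman rho 0.46), Cyth4 (0.45), Gm2a (0.44), Tnfrsf4 (0.41) and S100a6 (0.40). For Ikzf4 they were Glrx (0.40), Cdc37 (0.38), Akna (0.38), Tnfrsf9 (0.38) and Sema4b (0.38), so Tnfrsf9 stood on both lists. Ikzf3 had Rhof (0.35) and Reep5 (0.33) first, Ikzf1 Pdhb (0.29) and Ikzf5 Ccnl2 (0.27). The points share group, depth and library, so these are descriptions, and the weak ones carry no weight.

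Most partners of the family lay within 2-fold between all P6+ and all P6- cells, where 24.3% of all genes were at least 2-fold higher and 29.9% lower. Of 12 NuRD subunits above 10 cpm, 2 were at least 2-fold higher in P6+ cells and 0 lower, with a median log2 ratio of -0.10 against -0.05 over all genes. Mta3 (151 and 50.5 cpm) was the highest in ratio and Hdac2, a histone deacetylase (30.5 and 57.3 cpm), the lowest. Of 6 Sin3 and CtBP corepressor genes 1 was higher and 0 lower (median 0.44), with Rb1 at 13.3 and 2.29 cpm and Ctbp1 at 300.1 and 528.5 cpm. Rb1, the higher 1, reached 10 reads in 6.25% of P6+ and 3.10% of P6- cells, so its place rests on few cells. Of 7 SWI/SNF genes 1 was higher, Smarcb1, and 1 lower, Smarcc2 (median 0.82). Of the 5 genes of the cereblon ligase, which takes Ikaros and Aiolos as drug-induced substrates, Ddb1 was higher (281 and 137.2 cpm) and Crbn, cereblon itself, lower (372 and 790 cpm). Between the smaller Foxp3-high groups the partners lay further apart, as did all genes, of which 32.9% of 7550 were at least 2-fold higher and 36.7% lower in P6+ cells. There 0 of 12 NuRD genes were higher and 6 lower, 3 of 7 SWI/SNF genes were higher and 3 lower, 2 of 5 Sin3 and CtBP genes were higher and 1 lower, and 3 of 5 cereblon ligase genes were higher and 0 lower.

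Of the other lists, again between all P6+ and all P6- cells, 6 of 16 Treg genes were at least 2-fold higher and 2 lower (median log2 ratio 0.82), with Itgae (547 and 119.5 cpm) at the top and Gpr83 (0.118 and 72.96 cpm) at the bottom, which reached 10 reads in 1 P6- cell (0.775%), so that its place rests on that cell. Of 5 genes of naive T cells 0 were higher and 2 lower (median -0.91), and of 4 genes of antigen-experienced cells 1 was higher and 0 lower (median 0.11). Of the 9 CD4 T cell markers 0 were higher and 1 lower (median -0.05), the receptor segment Trbc1.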

How the data were processed

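The authors mapped 150-base paired-end reads of 176 cells with STAR 2.6.0a to GRCm38 with its Ensembl annotation, counted reads per gene without molecular identifiers, and deposited the raw counts with a table of tetramer signs, which matched all 176 labels. Reads of Smart-Seq2 are PCR copies, so intervals cover counting error only. Rows of 1 name were averaged (81 names), and cells with 500000 reads, 2000 genes and under 10% mitochondrial reads were kept, leaving 32 P6+ and 129 P6- cells. The methods also set a mapping rate limit, not used here, and name 129 remaining cells of both groups together, all P6+ cells among them, so 32 more P6- cells entered the shares here than in the study. Counts were summed over cells and divided by the total (cpm), with a pseudocount of 1 cpm in log2 ratios. Shares count cells with 10 reads. The depth of passing cells was 522188 to 3401373 reads. The members and gene lists were chosen with earlier results of these data known. The 20-point mark on shares was set after the data were seen. Genes named are the members, the genes that split cells, the ends of each list by log2 ratio and the 5 genes most like each member. The Treg genes, B cell markers and example cells beside Ikzf2 and Ikzf4 were named after their values were seen. Pooled sums were rescaled by edgeR 4.0.16 (TMM) or DESeq2 1.42.0 (size factors) as alternatives, with no test. Python 3.11.15, pandas 2.3.3 and scipy 1.17.1 did the rest. The code for ratios and likeness was checked on simulated Poisson counts around a mean profile per group. Those counts lack the split into few and many reads seen here, so the check does not measure spread in these cells. A B cell marker and the sequences of 2 members were left out and are not reported here.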

Additional observations from a re-analysis of the deposited data

How the results depend on the processing

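No paired analysis was possible because each group counted as 1 sample and cell numbers pair no samples. Over 18 alternatives the share of P6+ cells exceeded that of P6- cells in 18 for Ikzf2 (31.4 to 62.7 points) and Ikzf4 (24.96 to 47.9), 17 for Ikzf3 and 16 for Ikzf5, and was lower in 16 for Ikzf1. Of 357 shares recomputed, 310 stayed within the interval of the reported value. TMM, size factors or means of cells turned no log2 ratio of P6+ over P6- cells around. A pseudocount of 0.1 could not turn a sign. Summing rows of 1 name left the reads of each member as they were, since each was listed once. Such alternatives are in the counts although they could not change a direction. All 4 members that were tested kept their direction in 21 of 21 alternatives. The ratio stayed at least 2-fold in 18 of 21 for Ikzf1, in which it came to -0.40 without the Trbv13-2 cells, -0.79 without prefix P8 and -0.79 with 1000000 reads per cell, and in 19 of 21 for Ikzf2 (0.73 without the Trbv13-2 cells and 0.86 with the P6- cells of the P6+ prefix alone). Without a minimum level, 10.4% of genes were 2-fold higher and 16% lower. The depth limits Ikzf5 most, which fell to 0% of P6+ cells at 50 reads and to 0% when cells were thinned to 500000 reads.

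With 1 read as the line, shares were 46.9, 93.8, 71.9 and 78.1% of P6+ and 45.7, 56.6, 46.5 and 30.2% of P6- cells for Ikzf1 to Ikzf4, and 11.6% of P6- cells for Ikzf5. They were 100, 81.8 and 72.7% of Foxp3-high P6+ cells for Ikzf2 to Ikzf4, 47.6, 90.5, 66.7 and 80.95% of Foxp3-low P6+ cells for Ikzf1 to Ikzf4, 57.9 and 36.8% of Foxp3-high P6- cells for Ikzf3 and Ikzf4, and 45.5, 53.6, 44.5 and 29.1% of Foxp3-low P6- cells for Ikzf1 to Ikzf4. In cells with CD4 T cell and no B cell markers, an alternative chosen after seeing the data (14 P6+ and 83 P6- cells), Ikzf2 was at 35.7% of P6+, 3.61% of P6-, 33.3% of Foxp3-low P6+, 14.3% of Foxp3-high P6- and 2.63% of Foxp3-low P6- cells, and Ikzf4 at 0% of Foxp3-high P6- cells. With the P6- cells of the P6+ prefix alone, Ikzf1 was at 36.4%, and Ikzf4 and Ikzf5 at 0%, of P6- cells. In the 3 Foxp3-high cells of these Ikzf2 was at 33.3% and Ikzf3 and Ikzf4 at 0%, and in the Foxp3-low cells Ikzf1 was at 37.5% and Ikzf4 and Ikzf5 at 0%. Among P6+ cells with Trbv13-2 that were Foxp3-low, Ikzf1 was at 0, Ikzf2 at 100 and Ikzf3 at 57.1%. Without Trbv13-2, Ikzf3 was at 12.5% of P6+ and 7.14% of Foxp3-low P6+ cells, and Ikzf2 at 100% of 2 Foxp3-high P6+ cells. With Foxp3-high set at 1 read, Ikzf1 was at 0% of Foxp3-low P6+ and Ikzf2 at 34.1% of Foxp3-high P6- cells. Without the P6- cells of prefix P9, also an added alternative, Ikzf4 was at 0% of Foxp3-high P6- cells.

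Of the log2 ratios of at least 1 in size, those between Foxp3-high and Foxp3-low cells changed sign in 5 cases, in which the cause was not tested. For P6+ cells these were Ikzf1 (1.43 to -0.063) without the highest cell of each group and Ikzf3 (1.29 to -0.45) in cells with Trbv13-2. For P6- cells Ikzf4 went from 1.13 to -4.87 without the highest cell of each group, to -3.98 in cells with CD4 T cell and no B cell markers, and to -6.14 without prefix P9, and 1 cell held 99.8% of the Foxp3-high reads. Smaller ratios changed sign as well, Ikzf2 (0.59) in 1 of 14 and Ikzf4 (-0.48) in 1 of 14 alternatives for P6+ cells, to -0.47 and 1.65, and Ikzf1 (-0.17) in 4 of 21 and Ikzf3 (-0.05) in 8 of 21 for P6- cells, up to 0.32 and 1.05.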
